A study of Mus musculus with 7 samples.

Results

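The 8 genes described here encode Fc receptors for IgG and the proteins that carry their signal, namely Fcgr1, Fcgr2b, Fcgr3, Fcgr4, Fcer1g, Tyrobp, Trem1 and Syk. They were taken by name, by a rule that uses no measured value, though earlier results of these data were known when the set was chosen. All 8 were present among the 9096 genes listed in every run. They were measured by single-cell RNA sequencing in sorted CD11b+ Ly6G+ PI- cells of male C57BL/6J mice, the strain of every group. Healthy mice gave 6 libraries, with blood, bone marrow and spleen each taken in run 1 (mice aged 6 weeks) and in run 2 (mice aged 8 weeks), every library being a pool of 3 mice. A further library joined 5 conditions by hashtag, each a pool of 3 mice aged 8 weeks. These were healthy blood, blood and joint lavage on day 7 after K/BxN serum (150 µl intraperitoneally on days 0 and 2, an arthritis driven by transferred antibody and the immune complexes it forms), lung lavage 3 h after 25 ng of intranasal IL-1β, and peritoneal lavage 3 h after 25 ng of intraperitoneal IL-1β. Since each inflamed condition was 1 pool in 1 library, differences between these conditions have no replicate check and carry no test. No uninflamed joint, lung or peritoneum was sampled, so against healthy blood the effects of stimulus, site and time cannot be told apart.

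Fcγ receptors let neutrophils recognise antibody bound to a target. Fcgr1, Fcgr3 and Fcgr4 are activating receptors that pair with the shared γ chain encoded by Fcer1g, whose ITAM (immunoreceptor tyrosine-based activation motif) is phosphorylated and recruits the kinase Syk. Fcgr2b carries an ITIM, an inhibitory motif that recruits the phosphatase SHIP-1 and dampens the same signal. Tyrobp encodes DAP12, a second ITAM adaptor, which pairs with TREM-1 (Trem1), a receptor that amplifies inflammatory responses in myeloid cells.

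Healthy cells were kept where S100a8 and S100a9 made up at least 3% of UMIs (unique molecular identifiers, each standing for 1 captured RNA molecule) and Cd79a, Cd79b and Nkg7 together had fewer than 2 UMIs. This left 12588 of 16907 cells, between 1132 and 3644 per library. In the inflammation library, 4852 of 4856 cells carried a granulocyte label in the deposited annotation and were kept, and 4303 of these also passed the rule for healthy cells. They numbered 509 in healthy blood, 814 in arthritic blood, 2857 in the joint, 380 in the lung and 292 in the peritoneum. The kept cells held between 942688 and 10293966 UMIs per library or condition, with a median of 768 to 3681 UMIs per cell. All 15 neutrophil markers were detected in every library and condition. Libraries shared 0 to 36 cell barcodes over the 21 pairs. The runs differed in the makeup of spleen. Cells with at least 5% of UMIs from the granule genes Camp, Ngp, Ltf, Lcn2 and Chil3, here called granule-high and typical of less mature neutrophils, made up 40.6% of spleen run 1 and 2.94% of spleen run 2, against 9.58% and 0.659% of blood and 52.6% and 34.3% of bone marrow. Blood run 2 also held erythroid marker RNA, mostly haemoglobin, at 30744 UMIs per 1000000, against 254 to 947 in the other healthy libraries.

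Levels are given as UMIs per 1000000 UMIs of the kept cells (CPM). The assay tags each RNA molecule once near its 3′ end, so levels of different genes were compared without scaling to length. A summed level cannot tell fewer expressing cells from less RNA per cell, and shares of cells are therefore given for the genes on which a result turns. Intervals in brackets are exact 95% intervals and cover counting error only.

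Some of the genes lie close together or share sequence, which bears on how their reads are counted. In GRCm38 (mm10), with GENCODE M21, Fcgr2b is at chr1:170958617-170976547 on the minus strand, Fcgr4 at chr1:171018920-171029761 on the plus strand, Fcgr3 at chr1:171051174-171064935 on the minus strand and Fcer1g at chr1:171229572-171234365 on the minus strand. Fcgr1 is at chr3:96282909-96293969 (minus), Tyrobp at chr7:30413760-30417585 (plus), Syk at chr13:52583173-52648792 (plus) and Trem1 at chr17:48232768-48246924 (plus). Of 1467 words of 50 bases in the last 500 bases of the coding transcripts of Fcgr2b, 33 also occurred in Fcgr3 transcripts, and none of the words in the last 500 bases of the other 7 members occurred in another gene. Fcgr2b also shares 155 exonic bases with Gm38204, an antisense gene, so part of its signal cannot be assigned without the strand of the reads.

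The promoter windows of the receptors are shown because that of Fcgr2b lacks 1 short motif that the others hold. The windows are the 250 bases before the RefSeq start site in GRCm38.p6, printed 5′ to 3′ on the gene's strand and without bases that GENCODE places in an exon of the gene. All 250 bases of the Fcgr2b and Fcgr3 windows lie inside the gene as GENCODE draws it, downstream of its outermost start, so the stretches printed for these genes are intronic there. Capitals mark GAGGAA or its complement TTCCTC, the core bound by PU.1 and related ETS factors. The windows are chr3:96293970-96294219 for Fcgr1, chr1:171059404-171059626 for Fcgr3, chr1:171018676-171018919 for Fcgr4, chr1:170976128-170976190 for Fcgr2b and chr17:48232489-48232738 for Trem1.
Fcgr1: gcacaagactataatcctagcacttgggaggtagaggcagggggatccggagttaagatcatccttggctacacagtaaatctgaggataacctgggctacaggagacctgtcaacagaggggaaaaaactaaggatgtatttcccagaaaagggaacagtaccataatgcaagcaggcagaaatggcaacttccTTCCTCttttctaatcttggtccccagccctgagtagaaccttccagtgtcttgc
Fcgr3: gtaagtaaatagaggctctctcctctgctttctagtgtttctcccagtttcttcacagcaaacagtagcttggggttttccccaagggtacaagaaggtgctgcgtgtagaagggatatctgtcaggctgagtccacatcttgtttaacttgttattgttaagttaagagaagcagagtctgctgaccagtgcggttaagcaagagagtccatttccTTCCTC
Fcgr4: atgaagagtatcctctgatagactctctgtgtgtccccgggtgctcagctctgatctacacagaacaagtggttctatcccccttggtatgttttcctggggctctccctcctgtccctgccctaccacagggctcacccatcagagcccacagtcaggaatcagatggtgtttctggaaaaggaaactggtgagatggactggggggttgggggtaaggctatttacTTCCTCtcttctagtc
Fcgr2b: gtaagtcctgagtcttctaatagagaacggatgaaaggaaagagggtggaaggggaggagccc
Trem1: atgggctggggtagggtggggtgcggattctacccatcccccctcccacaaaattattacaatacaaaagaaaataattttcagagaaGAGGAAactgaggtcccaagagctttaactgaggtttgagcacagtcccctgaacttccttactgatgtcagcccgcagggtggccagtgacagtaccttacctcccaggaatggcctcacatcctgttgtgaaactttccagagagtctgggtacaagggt

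GAGGAA, searched on both strands, was found once in each of the windows of the 3 activating receptors, with its first base 55 bases before the start of Fcgr1, 15 or 6 bases before the 2 annotated starts of Fcgr3 and 22 bases before that of Fcgr4. It was found once before Trem1, at 162 bases, and before 1 of the 2 starts of Syk, at 9 bases. It was not found in the full 250 bases before Fcgr2b, Fcer1g or the other start of Syk. Of all 32851 promoter windows of this length, 23.3% held it. TTGCNNAA, a C/EBP motif, was found only before Fcgr3 among the 7 genes with a window and in 9.56% of all windows. An NF-κB outline (GGG and CC separated by any 5 bases) was found before Fcgr2b, Fcgr3, Fcgr4, Fcer1g and 1 start of Syk and in 45.8% of all windows. No match of 1 motif overlapped a match of another, though neighbouring NF-κB outlines overlapped each other before Fcgr2b, Fcgr3 and Fcgr4. A match describes the letters of the window and not a site in use.

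Among the activating receptors of healthy neutrophils, Fcgr3 was the most abundant. Blood gave 697 and 735 CPM (runs 1 and 2), spleen 447 and 706 CPM, and bone marrow 341 and 380 CPM. Both bone marrow libraries were below all others, and spleen run 1 lay between them and blood. Fcgr4 was less abundant and also lowest in bone marrow, with 145 and 146 CPM for blood, 88.5 and 164 CPM for spleen, and 53.5 and 64.4 CPM for bone marrow. The blood and spleen ranges overlapped for both receptors, and in run 2 Fcgr4 was higher in spleen than in blood. Fcgr1, the high-affinity receptor typical of macrophages, was close to absent, with 2 UMIs in blood run 1, 1 and 3 in bone marrow and 2 in spleen run 1. It had 0 UMIs in blood run 2, which allows up to 0.877 CPM, and in spleen run 2, which allows up to 1.65 CPM. Fcgr2b, the inhibitory receptor, was scarce, with 15.5 and 18.9 CPM for bone marrow, 13.1 and 13.7 CPM for spleen, and 17.7 and 8.48 CPM for blood. Both bone marrow libraries were above both spleen libraries, and the range of blood overlapped both. These Fcgr2b levels rest on 24 to 167 UMIs per library.

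The adaptors were far more abundant than the receptors and together made up 92.3% to 93.6% of the UMIs of the 8 genes in the healthy libraries. Tyrobp stood at 10056 and 11522 CPM in the blood libraries, 5614 and 10256 CPM in those of spleen, and 3875 and 4120 CPM in those of bone marrow. Fcer1g varied less, with 4719 and 4590 CPM for blood, 4058 and 4325 CPM for spleen, and 3463 and 3043 CPM for bone marrow, and the ranges of its 3 tissues did not overlap. Trem1 gave 87.0 and 167 CPM in blood, 55.1 and 176 CPM in spleen, and 37.5 and 73.4 CPM in marrow, with run 2 above run 1 in each tissue. For Syk, blood gave 153 and 175 CPM, spleen 71.6 and 156 CPM, and bone marrow 52.7 and 59.2 CPM. Spleen run 1 was near bone marrow and spleen run 2 near blood for Tyrobp, Trem1 and Syk.

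**Figure D1:**
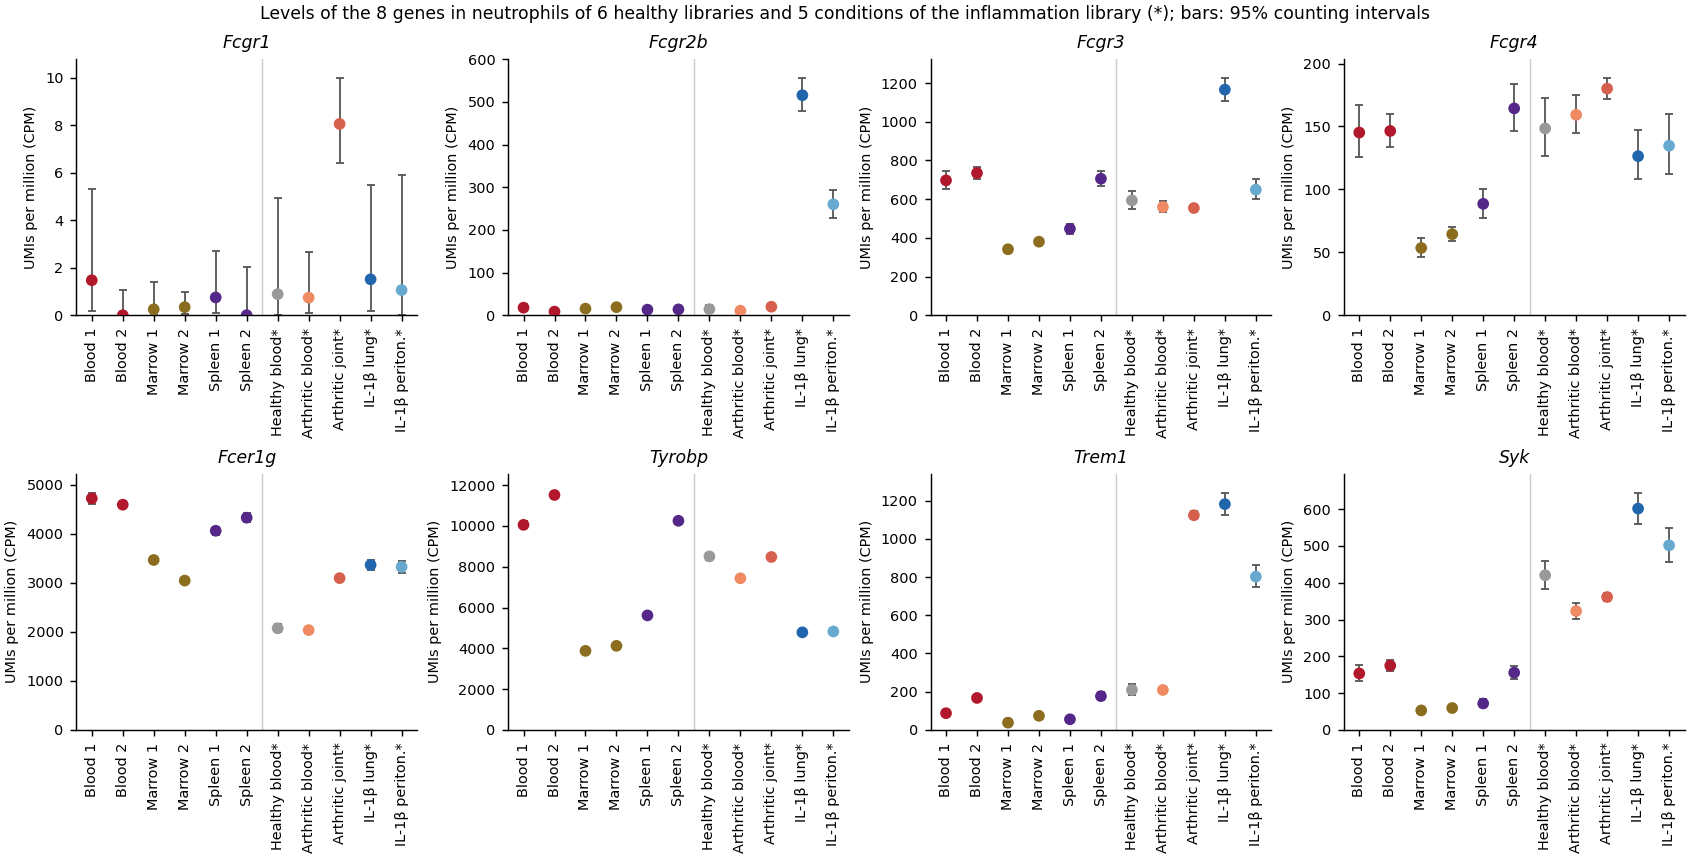
Level of each of the 8 genes in CPM, with 1 point per healthy library (left of the line) or condition of the inflammation library (right, marked by an asterisk) and exact 95% counting intervals. The chemistry differs across the line, so levels are not comparable across it. Fcgr3, Fcgr4, Tyrobp and Syk were lower in both bone marrow libraries than in both blood libraries, while Fcgr2b stood out in IL-1β lung and peritoneum at 515 and 260 CPM.

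Bone marrow was compared with blood to ask whether the receptor apparatus differs between the site of production and the circulation. By edgeR's quasi-likelihood test with run as a block and Benjamini-Hochberg adjustment over 7486 genes, 4 of the 7 members tested were lower in bone marrow and none was higher, where 22.8% of all genes were called and 11.8% were called lower. Fcgr1 was too low to be tested. Syk differed by -1.22 on the log2 scale (SE 0.23, adjusted p = 0.0109), Tyrobp by -1.10 (SE 0.23, adjusted p = 0.0168), Fcgr4 by -0.98 (SE 0.21, adjusted p = 0.0176) and Trem1 by -0.87 (SE 0.21, adjusted p = 0.0245). The difference was -0.66 for Fcgr3 (adjusted p = 0.0618), -0.19 for Fcer1g (adjusted p = 0.580) and 0.88 for Fcgr2b (adjusted p = 0.106), none of which passed. At an unadjusted edgeR p under 0.05 there were 6 members, 1 of them higher, and DESeq2 called 5. The median over the members was -0.87, against 0.02 over all genes tested. With library totals in place of TMM factors the median of all genes moved to -0.30, 30.5% of called genes were higher in place of 48.0%, and Fcgr3 was also called (-0.99, adjusted p = 0.0475).

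The 4 calls remained without cells rich in haemoglobin, but they rested on the pairing of the runs and on single libraries. Without the run block, the adjusted p was 0.115 for Syk, 0.121 for Tyrobp, 0.130 for Fcgr4 and 0.420 for Trem1. Without blood run 1 these 4 adjusted p-values were 0.147, 0.224, 0.221 and 0.235, without blood run 2 they were 0.102, 0.168, 0.117 and 0.171, and without bone marrow run 2 they were 0.0995, 0.0688, 0.139 and 0.280. Without bone marrow run 1, Fcgr4 and Trem1 lost their calls (0.0878 and 0.0985), and the adjusted p of Fcgr2b was 0.0188 (1.31). In each of these fits the tissue with 1 library left has no spread of its own and is assumed to vary like the others. Without spleen run 2, Fcgr2b was called (0.93, adjusted p = 0.0118), and without spleen run 1 or run 2 Fcgr3 was called lower (adjusted p = 0.0219 and 0.0306), in fits that called 2452 of 8120 genes without run 1 and 2809 of 8012 without run 2.

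The granule-high share moved with these differences, so the comparison was repeated in cells with under 1% of UMIs from the granule genes (granule-low). There the difference between bone marrow and blood was -0.08 for Fcgr4 (adjusted p = 0.813), -0.11 for Trem1 (adjusted p = 0.746), -0.29 for Tyrobp (adjusted p = 0.162) and 0.06 for Fcgr3 (adjusted p = 0.871). Syk was still lower in bone marrow (-0.59, adjusted p = 0.0226). The 10 monocyte and macrophage markers summed to 1339 and 1021 CPM in bone marrow against 641 and 272 CPM in blood, but they did not move together. Ly6c2 stood at 1302 and 970 CPM in bone marrow against 478 and 142 CPM in blood, and the C1q genes were also higher in bone marrow, at 3.75 to 8.26 CPM against at most 0.292 CPM. Csf1r went the other way, with 11.7 and 15.2 CPM against 114 and 92.1 CPM, as did Adgre1 and Ms4a6c. Without cells holding 2 or more UMIs of these markers, Syk (-0.91, adjusted p = 0.00412) and Tyrobp (-0.59, adjusted p = 0.0140) kept their calls, and Fcgr4 (-0.37, adjusted p = 0.173) and Trem1 (-0.32, adjusted p = 0.232) did not. That filter took 897 of 1188 and 1895 of 3378 bone marrow cells. With the markers restricted to Csf1r, Ccr2, Adgre1, Cx3cr1 and the C1q genes, which took 17 and 39 of them, the 4 members were still called (Syk -1.24, Tyrobp -1.09, Fcgr4 -0.96 and Trem1 -0.87).

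Spleen was compared with both other tissues to place the splenic pool. No member differed between spleen and blood by edgeR, with 0 of 7 also at an unadjusted p under 0.05 and by DESeq2, where 0.0668% of all genes were called. Differences ran from -0.48 for Syk (SE 0.22) to 0.30 for Fcgr2b (SE 0.38). Between spleen and bone marrow, 0 of 7 members passed, where 2.43% of all genes did (2.12% higher and 0.307% lower), and 87.4% of the calls were higher in spleen with TMM factors against 98.1% on library totals. Here 4 members were higher in spleen at an unadjusted p under 0.05, namely Fcgr4 (0.85), Syk (0.74), Tyrobp (0.73) and Trem1 (0.73), and DESeq2 called 1 of them, Tyrobp (adjusted p = 0.0134). The calls depended on spleen run 1, without which edgeR called 1040 of 8120 genes in place of 182 of 7486. That fit has 1 spleen library, assumed to vary like the other tissues, and the 4 members were among its calls, at 1.01 for Fcgr4 (adjusted p = 0.0174), 0.99 for Syk (adjusted p = 0.0172), 0.89 for Tyrobp (adjusted p = 0.0191) and 0.87 for Trem1 (adjusted p = 0.0280). Without cells holding monocyte markers, Tyrobp, Syk and Fcgr4 were called (adjusted p = 0.0262, 0.0374 and 0.0409).

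Granule-high and granule-low cells were then compared within the same library, in 6 libraries, to set less mature beside more mature neutrophils directly. The classes are ranges of a score, not cell types, with 546 healthy cells near the lower limit (0.8 to 1.2% of UMIs) and 388 near the upper one (4 to 6%). Granule-high cells numbered between 24 in blood run 2 and 1159 in bone marrow run 2. On the CPM scale, Fcgr2b went one way and the activating receptors the other. Fcgr2b was higher in granule-high cells in 6 of 6 libraries, at 14.8, 22.3 and 47.8 CPM (lowest, median and highest) against 7.97, 10.3 and 14.5 CPM in granule-low cells, so the classes did not overlap. Its granule-high counts ran from 2 UMIs in blood run 2 to 126 in bone marrow run 2, and the 47.8 CPM of spleen run 2 rests on 11 UMIs. Fcgr3 was lower in granule-high cells of all 6 libraries, at 202, 246 and 295 CPM against 590, 768 and 898 CPM. Fcgr4 stood at 34.8, 44.3 and 85.3 CPM against 108, 160 and 227 CPM. Tyrobp, Trem1 and Syk were also lower in granule-high cells of all 6 libraries. Tyrobp stood at 2411, 2797 and 3090 CPM against 7208, 11706 and 13726 CPM, Trem1 at 26.5, 33.8 and 42.7 CPM against 62.8, 129 and 195 CPM, and Syk at 40.1, 52.8 and 79.5 CPM against 84.9, 160 and 184 CPM. Fcer1g differed least, at 2719, 3163 and 3623 CPM against 3509, 4615 and 5363 CPM, and was lower in granule-high cells within each of the 6 libraries, although the ranges of the classes overlapped between libraries. These are shares of UMIs, and granule-high cells held more UMIs per cell. In blood run 1, 125 granule-high cells held 301966 UMIs and 1137 granule-low cells 966232. Syk gave 24 UMIs in the former and 178 in the latter, and Fcer1g 1071 and 4989, more per cell in granule-high cells. Fcgr3 gave 61 and 829, fewer per cell.

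**Figure D2:**
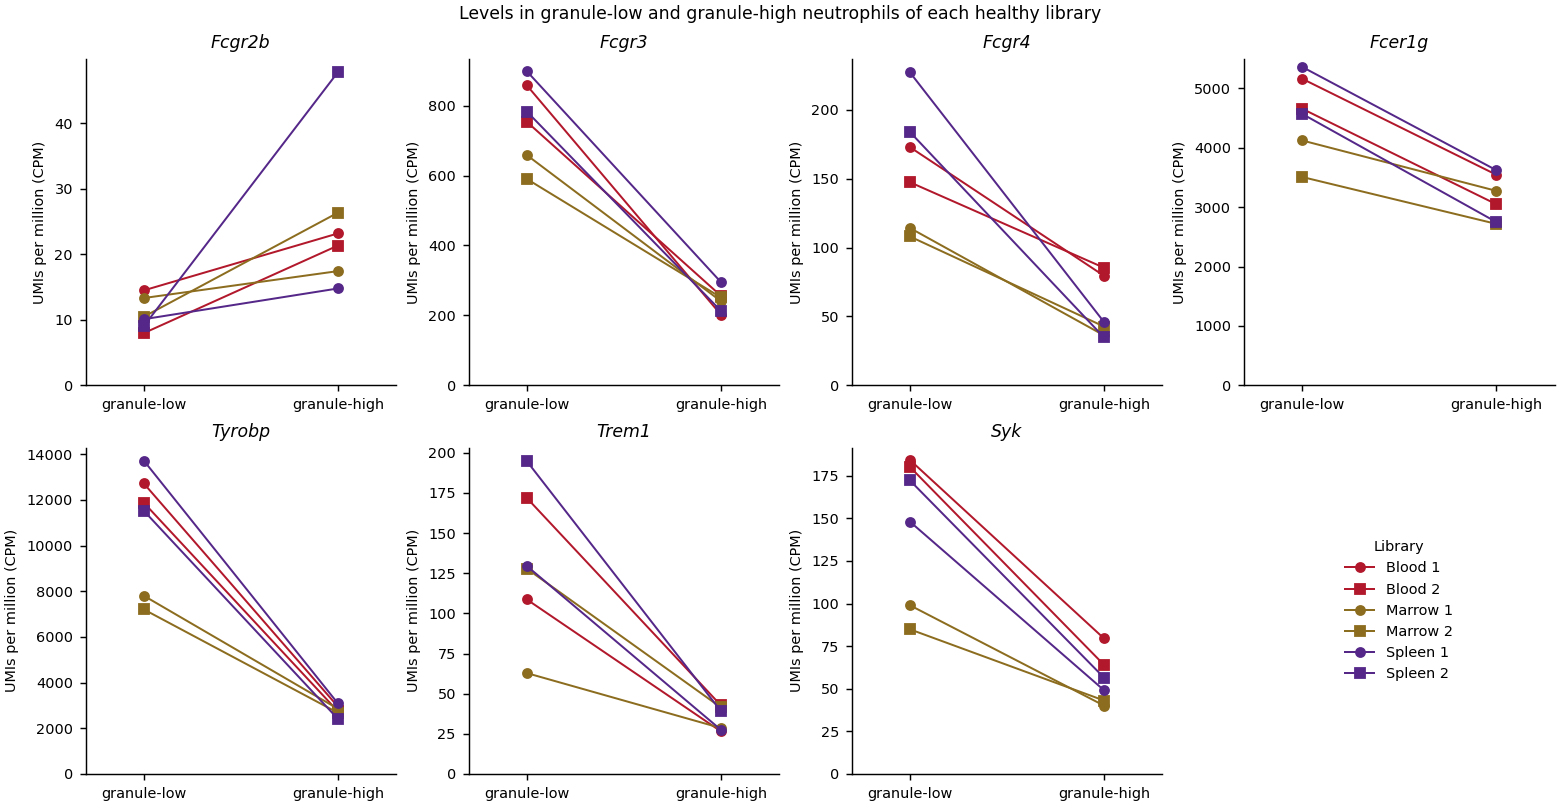
Level in CPM of 7 genes in granule-low and granule-high cells, with a line per healthy library (circles, run 1, and squares, run 2). As a share of UMIs, Fcgr2b is higher in granule-high cells in all 6 libraries, whereas Fcgr3, Fcgr4, Fcer1g, Tyrobp, Trem1 and Syk are lower in all 6.

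In the test with library as a block, 6 of the 7 members passed, 1 higher and 5 lower, where 49.6% of 5262 genes did (22.7% higher and 27% lower). The tissues of a run share mice, so the 6 libraries come from 2 pools of animals. The test treats them as 6 independent pairs, which its p-values do not correct for. Fcgr2b was higher in granule-high cells by 1.44 on the log2 scale (SE 0.30, edgeR adjusted p = 0.000623). Tyrobp was lower by -1.58 (SE 0.14, adjusted p = 3.71e-08), Trem1 by -1.53 (SE 0.18, adjusted p = 1.33e-06), Fcgr4 by -1.32 (SE 0.20, adjusted p = 2.25e-05), Fcgr3 by -1.29 (SE 0.12, adjusted p = 1.44e-07) and Syk by -1.01 (SE 0.16, adjusted p = 3.97e-05). Fcer1g did not pass (-0.19, SE 0.13, adjusted p = 0.233) and did so without blood run 1 (-0.34, adjusted p = 0.0470). Without cells holding 2 or more UMIs of the 10 monocyte markers, Trem1 and Syk were not called (edgeR adjusted p = 0.0699 and 0.0739), and Fcgr2b was too low to be tested. That filter took most bone marrow cells. Over all alternative settings the log2 difference ran from -1.69 to -0.76 for Trem1 and from -1.17 to -0.75 for Syk. With the restricted markers, the 6 members kept their calls.

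The ratio of activating to inhibitory receptor, counted as Fcgr1, Fcgr3 and Fcgr4 UMIs per Fcgr2b UMI, does not depend on how libraries are scaled. In blood it was 47.7 (31.9 to 74.8) in run 1 and 104 (72.3 to 156) in run 2. In bone marrow it was 25.5 (19.8 to 33.4) and 23.5 (20.2 to 27.6), and in spleen 40.8 (29.2 to 58.9) and 63.3 (42.7 to 98.1). Bone marrow was below every blood and spleen library. The means were 75.9 ± 39.8 (SD, n = 2) in blood, 24.5 ± 1.39 in bone marrow and 52.1 ± 15.9 in spleen. The order of blood, spleen and bone marrow was the same in both runs. An exact permutation test over 90 arrangements, which does not use the run, gave p = 0.133 (two-sided, adjusted over 4 ratios 0.178). The smallest p this design allows is 0.0667, so the test could not pass 0.05 and does not show that the tissues were alike. The ratios of Fcgr3 to Fcgr2b and of Fcgr4 to Fcgr2b gave the same p in that exact permutation test. The fourth ratio, Fcer1g to Tyrobp, gave 0.894 and 0.739 for bone marrow, 0.723 and 0.422 for spleen, and 0.469 and 0.398 for blood (exact permutation test, p = 0.200).

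Split by class, the ratio ran from 58.0 to 113 in granule-low cells and from 5.18 to 23.1 in granule-high cells. The values of the classes did not overlap, but some of their intervals did, such as that of granule-high cells in blood run 2 (16.0, 4.08 to 138), which rests on 2 Fcgr2b UMIs. The lowest value, in spleen run 2, rests on 57 activating and 11 inhibitory UMIs (2.69 to 11.0). In granule-low cells alone, bone marrow gave 58.0 (27.9 to 145) and 66.7 (42.6 to 111) and blood gave 71.3 (42.3 to 131) and 113 (77.0 to 173), so their intervals overlapped. Spleen gave 112 (51.0 to 305) and 107 (63.6 to 196), and both bone marrow values were below all 4 values of blood and spleen, as in the unsplit data.

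**Figure D3:**
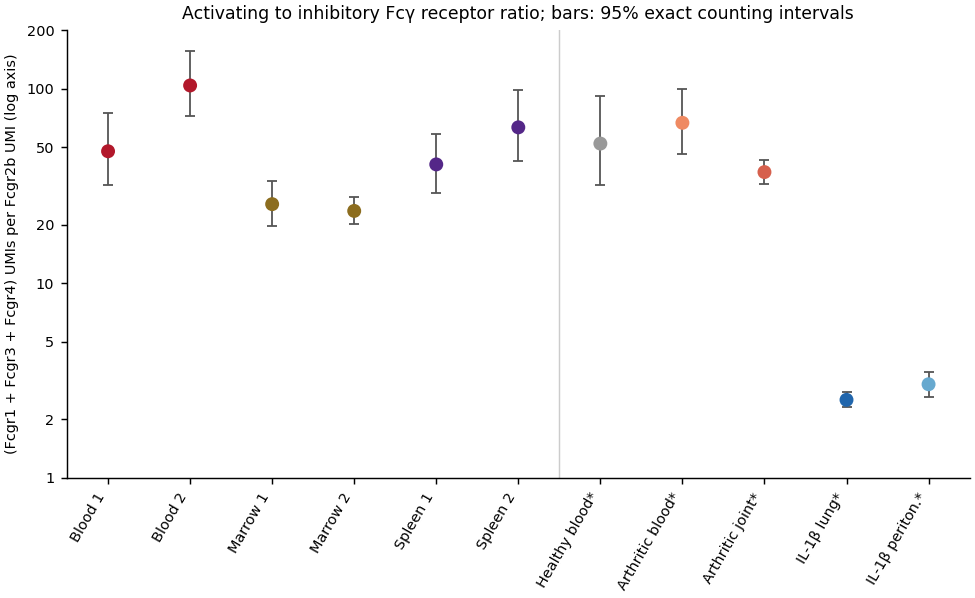
UMIs of Fcgr1, Fcgr3 and Fcgr4 per Fcgr2b UMI on a log axis, with 1 point per healthy library or inflamed condition (asterisks) and exact 95% counting intervals. Healthy libraries, both blood conditions and the joint lie between 23.5 and 104, and IL-1β lung and peritoneum lie at 2.51 and 3.02.

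In the inflammation library the question was how the receptor set differs in cells at an inflamed site. The clearest difference was in Fcgr2b after IL-1β. It stood at 14.2 CPM in healthy blood (16 UMIs), 10.8 CPM in arthritic blood (29 UMIs), 19.9 CPM in the arthritic joint (205 UMIs), 515 CPM in the lung (681 UMIs) and 260 CPM in the peritoneum (245 UMIs). Against healthy blood this was 36.2-fold higher in the lung (22.2 to 63.8) and 18.3-fold higher in the peritoneum (11.0 to 32.5). In the joint it was 1.40-fold healthy blood (0.842 to 2.50), an interval that holds 1. Lung was 1.98 times the peritoneum (1.71 to 2.30) and 25.9 times the joint (22.1 to 30.4).

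Differences in the activating receptors were smaller or rested on few UMIs. Fcgr3 stood at 594, 560, 554, 1166 and 649 CPM in healthy blood, arthritic blood, joint, lung and peritoneum, which is 1.96-fold higher in the lung (1.79 to 2.15), just under the limit of 2-fold used to call a difference here. Per 100 cells, Fcgr3 gave 131 UMIs in healthy blood and 406 in the lung, a larger difference than on the CPM scale. Fcgr4 stood at 148, 159, 180, 126 and 135 CPM in the same order, and its fold against healthy blood ran from 0.851 in the lung (0.683 to 1.06) to 1.21 in the joint (1.03 to 1.43). Fcgr1 had 1 UMI in healthy blood, 2 in arthritic blood, 2 in the lung and 1 in the peritoneum. The joint held 83 Fcgr1 UMIs (8.06 CPM, 6.42 to 10.0), a ratio of 9.07 to healthy blood with a wide interval (1.58 to 363) and of 10.9 to arthritic blood (2.91 to 91.1).

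Fcgr2b in the lung was spread over many cells. With each cell thinned to 1000 UMIs, which left out 94 of 380 lung cells and 155 of 509 healthy blood cells that were shallower, 39.2% of lung cells (33.5 to 45.1) and 20.8% of peritoneal cells (15.7 to 26.6) held a Fcgr2b UMI. The share was 1.69% in healthy blood (0.624 to 3.65), 1.63% in arthritic blood (0.817 to 2.90) and 1.94% in the joint (1.46 to 2.53). Without thinning, the shares were 68.2% in the lung, 38.4% in the peritoneum and 2.95% in healthy blood. In spleen run 2, T cells, which should lack the gene, gave 0 of 536 cells at 500 UMIs (exact upper bound 0.686%), and B cells, which express it, gave 3.03%, with median depths of 1946 and 1425 UMIs. The healthy neutrophils of the 6 libraries gave 0.439% to 0.704% at 500 UMIs. The tenth of lung cells with the most Fcgr2b held 34.2% of its UMIs, close to the 32.5% for Trem1.

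**Figure D4:**
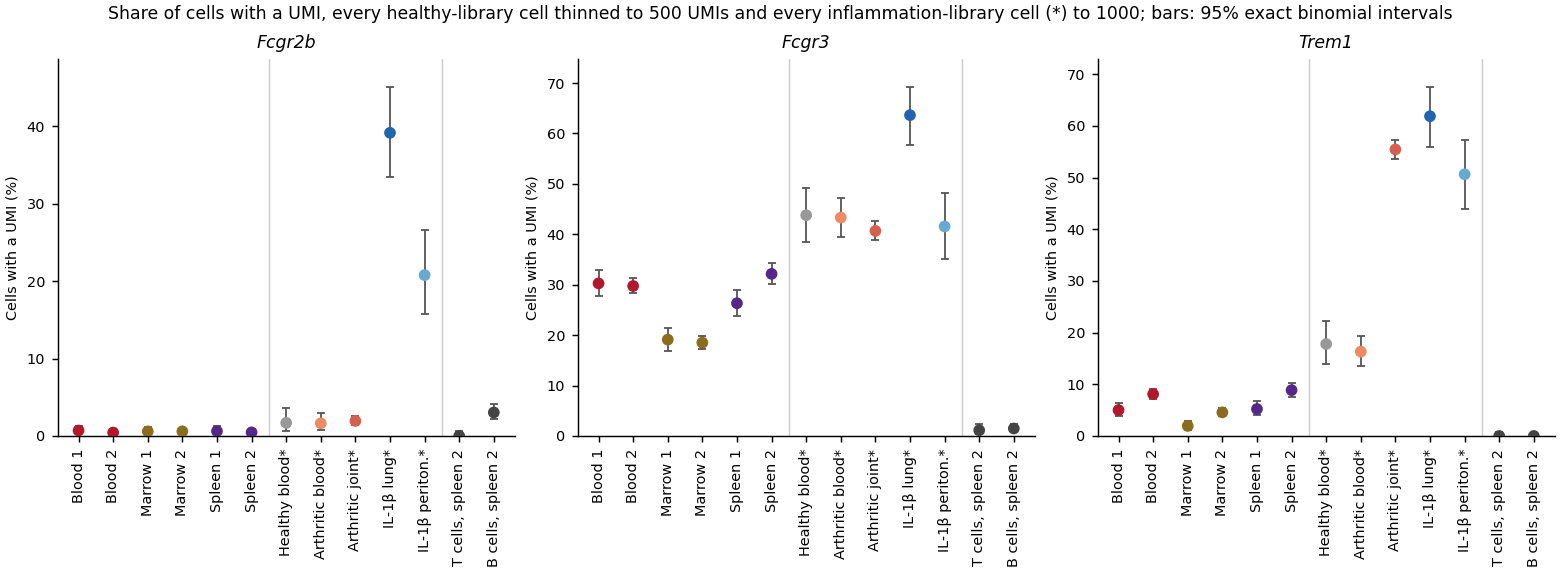
Percentage of cells with at least 1 UMI of Fcgr2b, Fcgr3 and Trem1 after thinning each cell to 500 UMIs (healthy libraries and the T and B cells of spleen run 2) or 1000 UMIs (inflammation library, asterisks), with exact 95% binomial intervals. Fcgr2b reaches 39.2% in the lung and 20.8% in the peritoneum and is at most 3.03% elsewhere, while Trem1 is over 50% in all 3 inflamed sites.

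Markers of B cells and macrophages, which also express Fcgr2b, were counted in the same cells. Of 8 B cell markers, 4 were detected in the lung and 2 in the peritoneum, summing to 22.7 and 28.6 CPM against 210 CPM in healthy blood, and Cd79a and Cd79b were at 0 in all 3. Ighm alone made up 208 CPM of the sum in healthy blood. Of 10 monocyte and macrophage markers, 6 were detected in the lung and 7 in the peritoneum, summing to 294 and 388 CPM against 282 CPM in healthy blood. The markers did not move together. In the lung Ly6c2 stood at 195 CPM against 66.7 CPM in healthy blood, Csf1r at 68.9 against 166 CPM and Adgre1 at 23.5 against 44.4 CPM. The C1q genes were at 0 in the lung and at most 0.889 CPM in healthy blood. Of 259 lung cells with a Fcgr2b UMI, 17 (6.56%) held 2 or more UMIs of the restricted monocyte markers, against 5 of 121 cells without one (4.13%). In the peritoneum these were 32 of 112 (28.6%) and 29 of 180 (16.1%). The macrophage marker Adgre1 stood at 157 CPM there against 44.4 CPM in healthy blood, and Ly6c2 at 114 against 66.7 CPM. Csf1r went the other way, with 109 against 166 CPM, and C1qa and C1qc were at 0 there. Without such cells the log2 fold of Fcgr2b was 5.29 in place of 5.18 in the lung and 4.17 in place of 4.19 in the peritoneum. Granule-high cells made up 0 of 380 lung cells and 1.37% of peritoneal cells, and among granule-low cells the lung fold was 5.20 on the log2 scale.

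The Fcgr1 UMIs of the joint came from 45 of 2857 cells, with at most 8 in 1 cell. Of these 45 cells, 3 held the restricted monocyte markers (6.67%, 1.40 to 18.3), against 9.17% of the other 2812. Fcgr4 stood at 589 CPM and Fcgr3 at 840 CPM in the 45 cells, against 173 and 549 CPM in the others, at median depths of 3490 and 3532 UMIs.

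The activating to inhibitory ratio followed from these levels. It was 52.2 (32.0 to 91.8) in healthy blood, 66.8 (46.4 to 100) in arthritic blood and 37.3 (32.4 to 43.0) in the joint. It was 2.51 (2.30 to 2.75) in the lung and 3.02 (2.61 to 3.50) in the peritoneum, whose intervals lay below those of the other 3 conditions. The joint lay within the interval of healthy blood and below that of arthritic blood. Fcgr4 to Fcgr2b passed below 1 in the lung (0.245, 0.206 to 0.291) and peritoneum (0.518, 0.415 to 0.645), whereas it was 10.4 in healthy blood and 9.04 in the joint. Within the activating receptors, Fcgr4 UMIs per Fcgr3 UMI were highest in the joint at 0.325 (0.308 to 0.343) and lowest in the lung at 0.108 (0.0918 to 0.127), against 0.250 in healthy blood (0.210 to 0.297). The interval of arthritic blood (0.255 to 0.317) overlapped those of the joint and of healthy blood. In granule-low cells alone the ratio was 2.47 in the lung and 2.73 in the peritoneum. There the granule score was mostly Lcn2 (4096 of 4412 CPM in the lung and 11753 of 11921 CPM in the peritoneum), so it does not grade maturity as in the healthy libraries.

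Trem1 separated inflamed sites from blood. It stood at 209 CPM in both healthy and arthritic blood, 1123 CPM in the joint, 1182 CPM in the lung and 802 CPM in the peritoneum. Against healthy blood it was 5.38-fold higher in the joint (4.73 to 6.14), 5.66-fold higher in the lung (4.93 to 6.52) and 3.84-fold higher in the peritoneum (3.31 to 4.46), and the joint was 5.38-fold above arthritic blood (4.95 to 5.87). Its partner Tyrobp stood at 8508, 7434, 8480, 4782 and 4825 CPM from healthy blood to peritoneum, and Fcer1g at 2070, 2033, 3093, 3362 and 3322 CPM. The balance of the adaptors differed between sites, with 0.243 Fcer1g UMIs per Tyrobp UMI in healthy blood (0.232 to 0.255), 0.273 in arthritic blood, 0.365 in the joint (0.360 to 0.369), 0.703 in the lung (0.676 to 0.731) and 0.689 in the peritoneum (0.658 to 0.721). Syk stood at 420 CPM in healthy blood, 323 CPM in arthritic blood, 361 CPM in the joint, 602 CPM in the lung and 502 CPM in the peritoneum.

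**Figure D5:**
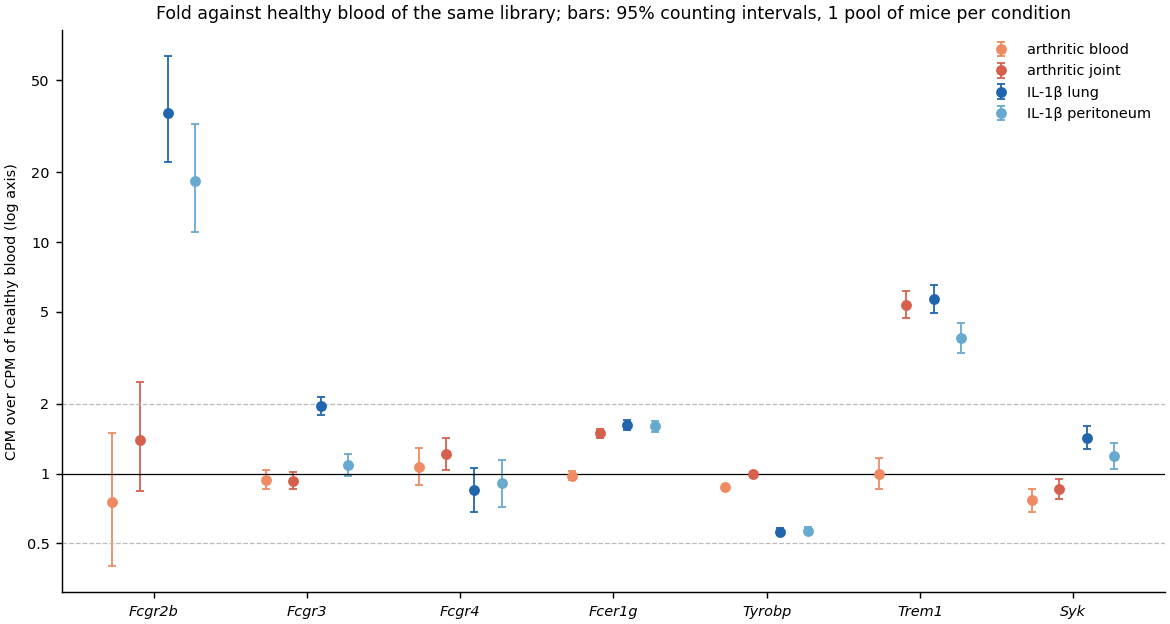
CPM of 7 genes over their CPM in healthy blood of the same library, on a log axis, for arthritic blood, arthritic joint, IL-1β lung and IL-1β peritoneum, with 95% counting intervals and dashed lines at 2-fold. Fcgr2b is past 2-fold in lung and peritoneum and Trem1 in joint, lung and peritoneum, and none of the 7 genes lies past 2-fold lower.

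Counted at 2-fold among genes with 10 or more CPM in either condition and 20 or more UMIs over both, 2 of 7 members were higher in the lung (Fcgr2b and Trem1), 2 in the peritoneum (the same genes), 1 in the joint (Trem1) and 0 in arthritic blood, and none was lower. Of all genes that met these limits, 60.9% in the lung (11.1% higher and 49.9% lower), 62.1% in the peritoneum (10.2% and 51.9%), 35.9% in the joint (9.59% and 26.3%) and 12.3% in arthritic blood (0.916% and 11.4%) were past 2-fold. Against arthritic blood, 1 of 7 was past 2-fold in the joint (Trem1), where 22.1% of genes were (13.1% higher and 8.93% lower). The median gene had a lower CPM than in healthy blood, with a log2 fold of -0.997 in the lung, -1.06 in the peritoneum, -0.51 in the joint and -0.41 in arthritic blood. The log2 fold of Tyrobp, -0.83 in the lung and -0.82 in the peritoneum, was above those medians. Per 100 cells, Tyrobp gave 1880 UMIs in healthy blood, 1662 in the lung and 1558 in the peritoneum, Fcgr4 gave 32.8, 43.9 and 43.5, and Fcgr2b gave 3.14, 179 and 83.9.

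Other genes of the pathway were counted in 5 lists. Of the kinases and adaptors downstream of ITAMs (18 listed), 5 of 17 tested were lower in bone marrow than blood and none higher, and 6 of 16 were lower in granule-high cells. Of the other receptors that use ITAM adaptors (19 listed), 8 of 12 were lower and 1 higher in bone marrow, and 7 of 10 were lower and 2 higher in granule-high cells. Of all genes, 11.8% were lower and 10.9% higher in bone marrow, and 27% were lower and 22.7% higher in granule-high cells, shares against which the counts of each list are to be read. The 2 higher in granule-high cells were Clec5a (0.72, edgeR adjusted p = 0.00417) and Trem3 (0.70, adjusted p = 0.000129), receptors that pair with DAP12 as Trem1 does. Among the other receptors that use ITAM adaptors, the largest differences between bone marrow and blood were in Clec4n and the Sirpb1 genes. Clec4n, which encodes the fungal receptor Dectin-2, stood at 34.6 and 78.3 CPM in blood and 2.00 and 6.23 CPM in bone marrow (log2 -3.50, edgeR adjusted p = 0.00174). The signal-regulatory proteins were Sirpb1a (-3.44, adjusted p = 0.00310), Sirpb1c (-3.37, adjusted p = 0.00174) and Sirpb1b (-2.85, adjusted p = 0.00237), with Cd300ld at -2.33 (adjusted p = 0.00403). In granule-high cells Sirpb1b (-5.45, adjusted p = 6.69e-12), Sirpb1c (-5.14, adjusted p = 1.17e-10), Clec4d (-3.72, adjusted p = 4.34e-12) and Cd300ld (-3.35, adjusted p = 1.19e-10) led the list. The Sirpb1 genes are near-identical copies, so their counts may be split uncertainly. In spleen against bone marrow, 5 of these 12 were higher, namely Clec4n (3.57), Sirpb1a (2.85), Sirpb1c (2.78), Sirpb1b (2.29) and Cd300ld (1.54), where 2.12% of all genes were higher and 0.307% lower.

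Among receptors with ITIM motifs (12 listed), 5 were lower and 2 higher in bone marrow, 1 was higher in spleen than bone marrow (Cd300a, 1.43), and 8 were lower and 3 higher in granule-high cells, where Cd300a differed most (-2.59, edgeR adjusted p = 3.16e-09). Of the phosphatases, DOK and CBL proteins that limit ITAM signalling (12 listed), 1 of 10 was higher and 1 lower in bone marrow and 1 of 9 was higher and 3 lower in granule-high cells, near the shares of all genes. The higher gene was Dok2, an adaptor that recruits a Ras inhibitor, at 3.91 (adjusted p = 0.0151) and 2.66 (adjusted p = 2.71e-05), from 3.69 and 0.877 CPM in blood to 21.2 and 20.8 CPM in bone marrow. Of 9 other antibody-binding receptors, 1 could be tested (Fcrl1), and it was lower in bone marrow. No gene of the 5 lists was called between spleen and blood.

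At the inflamed sites, 3 of the 12 measured receptors that use ITAM adaptors were past 2-fold higher in the joint, and 4 were higher and 3 lower in both the lung and the peritoneum. The 3 were Clec4n, Clec4e and Clec4d, C-type lectin receptors linked to the γ chain, and the fourth was Clec5a, a C-type lectin receptor that pairs with DAP12 and was 2.98-fold higher in the lung (2.37 to 3.79) and 4.32-fold higher in the peritoneum (3.43 to 5.48). Of all genes, 9.59% were higher and 26.3% lower in the joint, 11.1% and 49.9% in the lung, and 10.2% and 51.9% in the peritoneum. Clec4n stood at 63.1 CPM in healthy blood, 30.1 CPM in arthritic blood, 593 CPM in the joint, 547 CPM in the lung and 744 CPM in the peritoneum, which is 9.40-fold, 8.66-fold and 11.8-fold above healthy blood for the 3 sites and 19.7-fold above arthritic blood for the joint (15.8 to 24.9). Clec4e, the receptor Mincle, was 4.65-fold higher in the joint and 7.73-fold in the peritoneum, and its partner Clec4d 3.92-fold in the joint. In arthritic blood, Clec4n was at 0.476 (0.342 to 0.665) and Dok1 at 0.402 (0.222 to 0.724) of the healthy blood level. Of the limiting proteins, Ptprj, the phosphatase CD148, stood at 24.9 CPM in healthy blood, 66.4 CPM in the joint, 222 CPM in the lung and 307 CPM in the peritoneum, and Dok1 had 26 UMIs in healthy blood, 3 in the lung and 0 in the peritoneum, where it was at least 7.26-fold lower when 0 is set to the floor of 3 counts per condition. The exact interval of the ratio, which also covers the error of the 26 UMIs, reaches up to 0.182. In all, 2 were higher and 2 lower in the joint, 1 higher and 5 lower in the lung, and 1 higher and 4 lower in the peritoneum, out of 9, of which the shares lower in the lung and peritoneum were near those of all genes, and Ubash3b was 3.55-fold higher in the joint than in arthritic blood. Of 17 kinases and adaptors, 0 were higher and 4 lower in the joint, 2 higher and 8 lower in the lung (Plcg2 8.06-fold lower) and 3 higher and 5 lower in the peritoneum. The shares lower, 4 of 17 in the joint and 8 of 17 in the lung, were near the 26.3% and 49.9% of all genes. Of 12 ITIM receptors, 2 were higher and 3 lower in the joint (Clec12a 5.53-fold lower), 4 higher and 5 lower in the lung and 4 higher and 3 lower in the peritoneum. Fcrl1 was past 2-fold lower in the lung and peritoneum.

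Across the 11 profiles (6 libraries and 5 conditions, centred within each run and within the inflammation library), the genes most like Fcgr2b were Plac8 (Pearson r = 0.989), Cish (0.988) and Cd47 (0.983) among 3734 genes with a mean of at least 20 CPM. For Fcgr3 they were Sptlc2 (0.982), Rbm47 (0.980) and Trpv2 (0.958), and for Fcgr4 Ifi27l2a (0.978), Fxyd5 (0.974) and Shisa5 (0.973). For Fcgr1 they were Rnh1 (0.964), Spp1 (0.963) and Igf2r (0.957). The 5 inflamed profiles share 1 library and the tissues of a run share mice, so these are descriptions, and for Fcgr1 and Fcgr2b they rest on 1 and 2 high profiles.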

How the data were processed

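Neutrophils were sorted by the authors, run on the 10x Chromium platform and counted with Cell Ranger against mm10. The deposited tables hold raw UMI counts per gene and cell, and a deposited annotation gives each inflammation-library cell its hashtag condition and cell type. Counts were summed per library over the kept cells and tested with edgeR 4.0.16 (quasi-likelihood, TMM factors, low-count filter, run as a block, false discovery rate 0.05), with DESeq2 1.42.0 as an alternative. The run was kept as a block because blood, marrow and spleen were taken from the same animals within each run, and same-run deviations correlated at 0.513, 0.457 and 0.611. Classes were compared with library as a block, leaving out the 5 granule genes. With run as a block and 2 pools per tissue, tissue p-values measure how far tissue differences vary between the runs. The estimate of that spread is shared by the tissues. Class p-values measure how far the class difference varies between libraries, which come from 2 pools of mice. The authors gated doublets out in the sort and removed hashtag doublets from the inflammation library before deposit. No doublet caller was run here, and the B and NK cell limit was applied to the healthy libraries. The members, lists and limits were chosen with earlier results of these data known. Named list genes are up to 6 per tissue or class comparison, and up to 4 per inflamed condition, with the largest difference among those called. All 8 members are named throughout, and Fcrl1, Clec5a and Trem3 were named after their values were seen. Promoters came from RefSeq (GRCm38.p6), where 7 of 8 members matched. The fits were tested on simulated data. Tables of run 1 list 9112 genes and the others 28692.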

Additional observations from a re-analysis of the deposited data

Results flagged for a closer look

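Syk, the kinase recruited by both ITAM adaptors, stood out because its fold against healthy blood pointed upward after IL-1β and downward after K/BxN serum. It was 1.431 in the lung (1.28 to 1.61) and 1.193 in the peritoneum (1.05 to 1.36), and 0.7682 in arthritic blood (0.686 to 0.861) and 0.859 in the joint (0.780 to 0.947). Each condition was 1 pool, all 4 folds share the healthy blood sample, and the difference was not tested. Stimulus, site and time of harvest differ together here and cannot be told apart. None of the folds reached 2-fold. The downward direction depends on the scaling. Per 100 cells, Syk gave 92.9 UMIs in healthy blood, 107 in arthritic blood, 130 in the joint, 209 in the lung and 162 in the peritoneum, and its log2 folds of -0.38 in arthritic blood and -0.22 in the joint were above the median gene (-0.41 and -0.51).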

How the results depend on the processing

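With 2 pools per tissue and 1 per inflamed condition, p-values of the blocked fits measure how far differences vary between runs (tissues) or libraries (classes). The inflamed intervals cover counting error only. Stricter class limits left blood run 2 out, with too few granule-high cells. Fcgr1 could not be tested, and Fcgr2b in healthy libraries rests on few UMIs. Counts of genes called moved with the setting. Bone marrow against blood gave 1706 genes, 121 without the replicate block and 958 in granule-low cells, and from 204 (without blood run 1) to 2809 (without spleen run 2) when 1 library was left out. Spleen against blood gave 5, then 0 without the block (446 at an unadjusted edgeR p under 0.05), 29 by DESeq2, 62 without the low-count filter, 12 with S100a8 and S100a9 at 10% or more, 9 without monocyte-marker cells, 17 in granule-low cells and from 0 (without blood run 2) to 910 (without spleen run 2) with a library left out. Spleen against bone marrow gave 182, then 0 without the block (642 unadjusted), 456 without the low-count filter, 112 with the 10% limit, 865 without monocyte-marker cells, 812 in granule-low cells, 106 on library totals, and from 8 (without blood run 2) to 1040 (without spleen run 1) with a library left out. The class comparison gave 2611, and 1054 without monocyte-marker cells. The lung ratio of 2.51 was 2.81 under the healthy-cell rule and 1.81 as a mean of single cells. The cause of these shifts was not tested.

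Directions turned only for members that had not been called. Against blood, bone marrow gave 0.0047 (without monocyte-marker cells) and 0.058 (granule-low) for Fcer1g and 0.058 (granule-low) for Fcgr3. For spleen against blood, leaving out 1 library gave -0.21 to 0.77 for Fcgr2b, -0.28 to 0.013 for Fcgr4 and -0.18 to 0.14 for Fcer1g (0.11 without spleen run 2), and the 10% limit gave 0.0079 for Fcer1g. Without monocyte-marker cells that comparison gave -0.091 for Fcgr2b, 0.24 for Fcgr4, 0.021 for Fcer1g and 0.11 for Trem1, and in granule-low cells -0.10, 0.35, 0.015 and 0.19, with 0.061 for Fcgr3 and 0.036 for Tyrobp. Fcer1g was -0.043 for spleen against bone marrow in granule-low cells and 0.12 between classes without monocyte-marker cells. The restricted monocyte markers and library totals were chosen after the data were seen.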
